A study of Bos taurus with 14 samples.

Results

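The 100 most abundant genes of bovine endometrium were examined, out of 15524 genes listed in the deposited count table. For each library every gene's count was divided by the library total and multiplied by 1000000, giving CPM, the count rate relative to the library total. The mean CPM over 14 libraries was then ranked, and the 100 genes with the highest mean were taken. The members were thus chosen by their measured level, which is given as description. The rule used the mean over all libraries and not the contrast between fertility groups, which was tested.

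Endometrium, the lining of the uterus, came from the uterine horn labelled ipsilateral, on day 7 of the oestrous cycle as the labels are read here. Of the 14 cattle samples, 7 were labelled high fertility (Fert+) and 7 low fertility (Fert-). Both groups shared tissue and time point. No treatment and no untreated control are named in the labels used here, which does not show that the animals were untreated. The labels used here give no breed, age or parity, and they do not say whether every sample is a different cow. A p-value therefore refers to the variation among the samples, which may be partly technical. Replicate numbers follow the order of listing and pair nothing.

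A polyadenylated RNA library of any tissue is headed by a small number of very abundant transcripts. Common classes are transcripts of the mitochondrial genome, ribosomal proteins and translation factors, cytoskeletal proteins and, where connective tissue is plentiful, collagens and other matrix proteins. Endometrium is made of luminal and glandular epithelium over a stroma of fibroblasts, vessels and immune cells, and in the days after ovulation progesterone turns its epithelium towards secretion. The files give genes as Ensembl identifiers without names, and 0 of these matched the 37063 entries of the RefSeq table used here (assembly ARS-UCD2.0). The members are therefore given by identifier, the class of each is not stated, and the tissue could not be checked against marker genes. Gene lengths could not be matched either. A high rank here means many counts, which a long transcript also collects, and not more molecules than a gene of lower rank.

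Libraries held 20641141 to 23641397 counts. The lowest count of any member in any library was 1530, for ENSBTAG00000015988, and the counting error expected at a member's mean count was 0.138% to 0.744% of that mean. Counting error was thus far below the spread between libraries described for each gene. All 100 members passed the filter on low counts. Low fertility replicates 4 and 5 had the most falls over all genes. In these, 9.44% and 11.1% of 14929 tested genes were at least 2 times below the median of the other 13 libraries. The rest had 1.31% to 5.35%. At least 2 times above that median were 2.74% and 7.39%, against 1.13% to 5.89% in the rest. Low fertility replicate 4 thus stood apart only by its falls.

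The 100 members, 0.644% of the genes listed, took 22.7% ± 1.4 of a library's counts (SD, n = 14). The lowest share was 20.1%, in low fertility replicate 5, and the highest 24.5%, in high fertility replicate 4. Abundance fell steeply at the head of the ranking. The first gene alone took 2.29% of counts, the first 10 took 9.15% and the first 50 took 17.6%. The first gene had 5.41 times the mean CPM of the tenth and 28.7 times that of the last member. Beyond the members the decline was slow: 922 genes, 5.94% of those listed, were needed to reach 50% of the counts.

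The ranking by mean was shared by most libraries but not by all. Of the 100 members, 52 were among the 100 highest genes of every single library, and 189 genes reached the 100 highest of at least 1 library. Between 72 and 88 members were among a library's own 100 highest, with the fewest in low fertility replicate 5. Leaving out any 1 library kept 95 to 100 members. The rankings made from high fertility samples alone and from low fertility samples alone shared 91 genes of 100.

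At the edge of the rule the members blended into the next genes. Mean CPM was 799 to 806 for the 5 members of lowest rank and 779 to 798 for the 5 genes just outside. The last member, ENSBTAG00000006029 at 799 ± 382 CPM (SD, n = 14), and the next gene, ENSBTAG00000002549 at 798 ± 143 CPM (SD, n = 14), cannot be separated by their means.

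**Figure D1:**
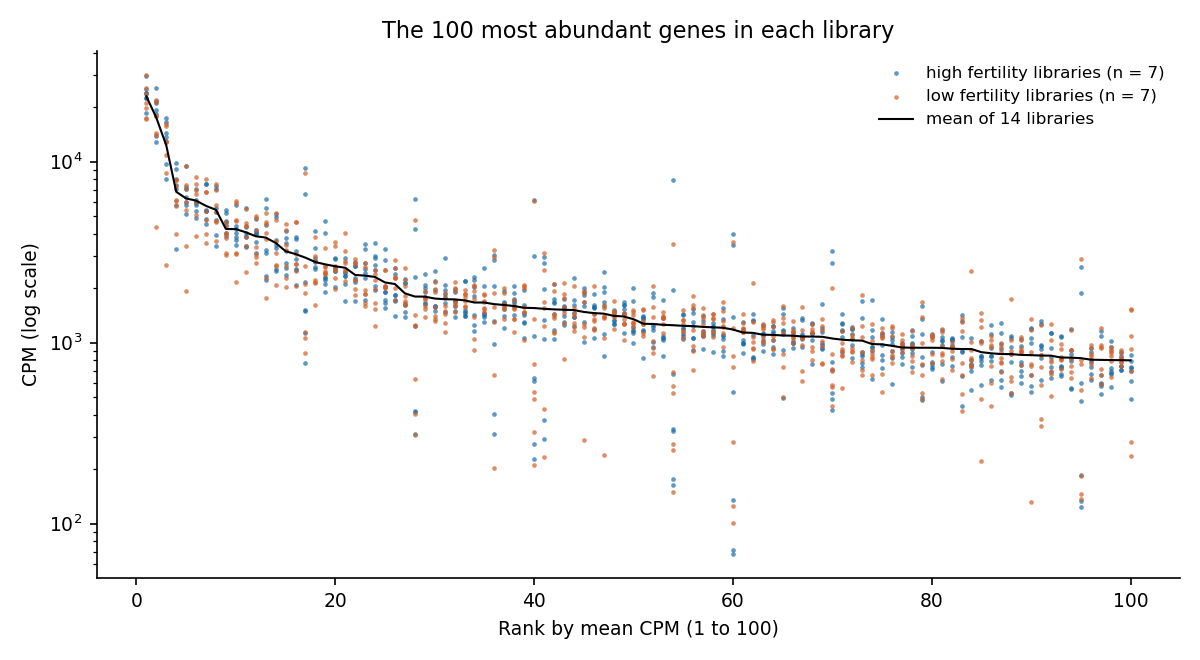
CPM on a log scale (vertical) against rank by mean CPM (horizontal) for the 100 members. Each point is 1 library, blue for high and orange for low fertility, and the line is the mean of 14 libraries; the line falls from 22934 CPM at rank 1 to 799 CPM at rank 100, and single members such as rank 17 and rank 54 scatter far more than their neighbours.

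The most abundant gene, ENSBTAG00000043561, was at 18493 to 29832 CPM in high fertility samples (median 23827) and at 17244 to 30235 CPM in low fertility samples (median 20996). These ranges overlapped almost wholly, and its log2 change, high minus low, was 0.14 (95% interval -0.18 to 0.47). It was one of a run of members with neighbouring identifiers. Between ENSBTAG00000043546 and ENSBTAG00000043584 the table lists 22 genes, of which 13 were members, 10 of them among the 20 most abundant. This run was noticed after the ranking was seen, and its values are given without a test. Its ends were set by the lowest and highest numbered members within 50 of the first gene, so both ends are members by construction. Members made up 59.1% of the genes listed in the run, against 0.644% of all genes listed. The way the run was drawn raises the first of these shares, and no enrichment is read from it. The other 9 listed genes of the run lay between 0.131 and 614 CPM.

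The 13 members of the run took 6.63% ± 1.26 of counts (SD, n = 14). Their summed share was lowest in low fertility replicate 6, at 4.63%, and highest in low fertility replicate 2, at 8.93%. In high fertility samples it was 6.73% ± 1.20 (SD, n = 7), from 5.26% to 8.80%, and in low fertility samples 6.52% ± 1.41 (SD, n = 7), from 4.63% to 8.93%. The means differed by 0.214 percentage points, well within the spread of either group. Low fertility replicate 2 had the highest level of all libraries for 9 of the 13, and low fertility replicate 6 the lowest for 10 of the 13. Ranks 6, 7, 8 and 10 were also held by members of the run. ENSBTAG00000043560 was at 4906 to 7044 CPM in high fertility samples (median 5912) and at 3868 to 8243 CPM in low fertility samples (median 6652). ENSBTAG00000043584 was at 4555 to 7527 CPM in high fertility samples (median 5367) and at 3535 to 8026 CPM in low fertility samples (median 5340). In both genes the high fertility samples lay within the range of the low fertility samples. ENSBTAG00000043558 was at 3428 to 7371 CPM in high fertility samples (median 5258) and at 3665 to 7504 CPM in low fertility samples (median 5246). ENSBTAG00000043550 was at 3477 to 5787 CPM in high fertility samples (median 4057) and at 2167 to 6091 CPM in low fertility samples (median 4698). All 4 were highest in low fertility replicate 2, and their log2 changes, high minus low, lay between -0.08 and 0.08. Outside the run, the other 87 members took 16.0% ± 1.15 (SD, n = 14).

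**Figure D2:**
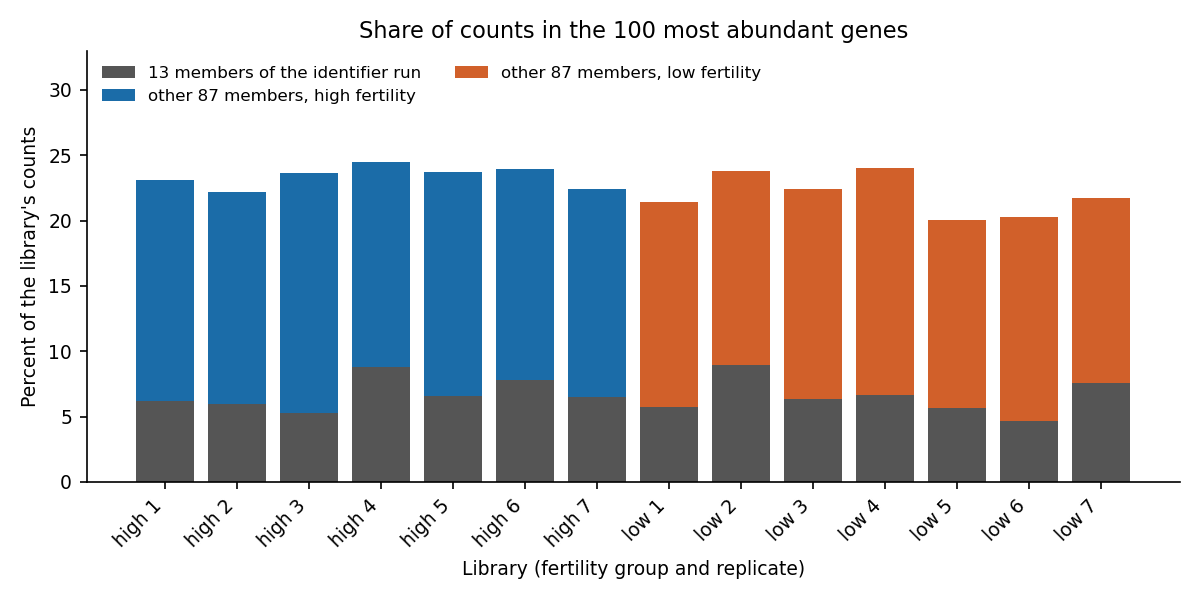
Percent of each library's counts (vertical) held by the 100 members, for the 14 libraries (horizontal). Grey is the summed share of the 13 members of the identifier run, and colour that of the other 87, blue for high and orange for low fertility; the whole bars reach from 20.1% to 24.5%, and the grey parts from 4.63% to 8.93%.

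Ranks 2, 3 and 5 were held by genes that shared 1 low library. ENSBTAG00000021466 was at 12888 to 25523 CPM in high fertility samples (median 19322) and at 4375 to 21990 CPM in low fertility samples (median 17796). Its lowest value, in low fertility replicate 5, lay far below the 12888 CPM of the next lowest library. ENSBTAG00000013472 was at 8026 to 17412 CPM in high fertility samples (median 13668) and at 2682 to 16048 CPM in low fertility samples (median 12801). ENSBTAG00000013103 was at 5144 to 9445 CPM in high fertility samples (median 6413) and at 1931 to 9417 CPM in low fertility samples (median 5953). All 3 were lowest in low fertility replicate 5, at 4.18, 4.83 and 3.32 times below the median of the other 13 libraries.

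In low fertility replicate 5, 10 of the 100 members were at least 2 times below that median, and 11 at least 2 times above it. Over all 14929 tested genes these shares were 11.1% and 7.39%, so that falls were about as frequent among the members as among genes in general. The steepest falls were those of ENSBTAG00000010793 (132 CPM against a median of 883 CPM in the other 13 libraries) and ENSBTAG00000009150 (240 CPM against 1548 CPM). The steepest rise was that of ENSBTAG00000015988 (3597 CPM against 534 CPM). RNA quality and cell content of this sample could not be read from named genes, and their part in these departures was not tested.

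The fourth gene, ENSBTAG00000003505, was lowest in another library. It was at 3274 to 9816 CPM in high fertility samples (median 7450) and at 3974 to 7954 CPM in low fertility samples (median 6137). High fertility replicate 1 held the lowest value and low fertility replicate 5 the next. ENSBTAG00000014835, at rank 9, had the smallest relative spread of the first 10 genes, at 4247 ± 682 CPM (SD, n = 14).

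The spread between libraries was measured as the coefficient of variation (CV), the SD over the mean of CPM over 14 libraries. The median CV of the members was 22.7%, against 18.7% for the 900 tested genes ranked just below them, to rank 1000, and 24.9% for all 14929 tested genes. The greatest abundance thus did not come with the smallest spread. Members ranged from 8.27% to 170%. A CV over 50% was found for 10 members, or 10%, against 6.33% of the genes just below and 13.5% of all tested genes, and a CV under 15% for 19 members, against 33% and 17.1%. The highest library was at least 5 times the lowest for 16 members and at least 2 times for 62. These shares were 8.89% and 47.1% for the genes just below, and 17.7% and 65.3% for all tested genes. Within groups the median CV of members was 21.3% in high and 22.0% in low fertility samples, and 59 members had the larger CV in low fertility. Over all tested genes these medians were 21.9% and 25.4%, and 63.5% had the larger CV in low fertility. Without low fertility replicate 5 the median in low fertility samples was 20.2% for the members and 22.7% for all tested genes.

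The steadiest members, named after their values were seen, were ENSBTAG00000017475 at 710 to 909 CPM (CV 8.27%) and ENSBTAG00000017753 at 1189 to 1690 CPM (CV 8.97%). Both had narrow intervals for the fertility contrast, with log2 changes of -0.04 (95% interval -0.23 to 0.15) and -0.03 (95% interval -0.25 to 0.18).

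Of the 10 most variable members, 7 fell into groups that shared their 3 highest libraries. ENSBTAG00000031160 had the largest CV, 170%. Its high fertility samples ran from 163 to 7882 CPM (median 332) and its low fertility samples from 149 to 3515 CPM (median 524). High fertility replicate 3 was highest, followed by low fertility replicate 1 and, at 1944 CPM, high fertility replicate 2, and the next library was at 692 CPM. The mean of its other 13 libraries was 738 CPM, below the 799 CPM of the last member, though the ranking of all genes was not redrawn for this. Other members also fell below that level without their own highest library, as ENSBTAG00000007196 did at 661 CPM. ENSBTAG00000048135 (CV 132%) was highest in the same 3 libraries. It ran from 227.7 to 6161 CPM in high fertility (median 640) and from 211 to 6047 CPM in low fertility samples (median 535). The high libraries of this pair came from both fertility groups.

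A second group of 5 genes was highest in high fertility replicates 1 and 3 and low fertility replicate 5. ENSBTAG00000011190, at rank 17, reached 9209, 6608 and 8642 CPM in these libraries and at most 2661 CPM in the other 11. ENSBTAG00000014614 reached 6232, 4259 and 4767 CPM there and at most 2293 CPM elsewhere. For ENSBTAG00000015988 the values were 4010, 3454 and 3597 CPM, against 68.1 to 1392 CPM in the other 11. In all 3 genes these libraries thus stood clear of the rest. ENSBTAG00000007196 and ENSBTAG00000022004 had the same 3 libraries on top, with CVs of 115% and 85.8%. Among all members, 12 had these as their 3 highest libraries, and 4.23% of all tested genes did. The fertility labels did not part these libraries.

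A further pair, ENSBTAG00000004322 and ENSBTAG00000010069, was low in a few libraries. ENSBTAG00000004322 was at 314 to 3050 CPM in high fertility samples (median 1320) and at 202 to 3246 CPM in low fertility samples (median 1579). High fertility replicates 2 and 6 and low fertility replicates 2 and 6 were at 202 to 666 CPM, and the other 10 libraries at 983 CPM or more. ENSBTAG00000010069 had the same 4 libraries lowest, at 233 to 432 CPM, and the others at 1047 to 3144 CPM. The tenth of the most variable members, ENSBTAG00000005574, owed its spread to 1 library. It was at 2496 CPM in low fertility replicate 5 and at 544 to 1057 CPM in the other 13, and its CV of 51.0% fell to 16.6% without that replicate.

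**Figure D3:**
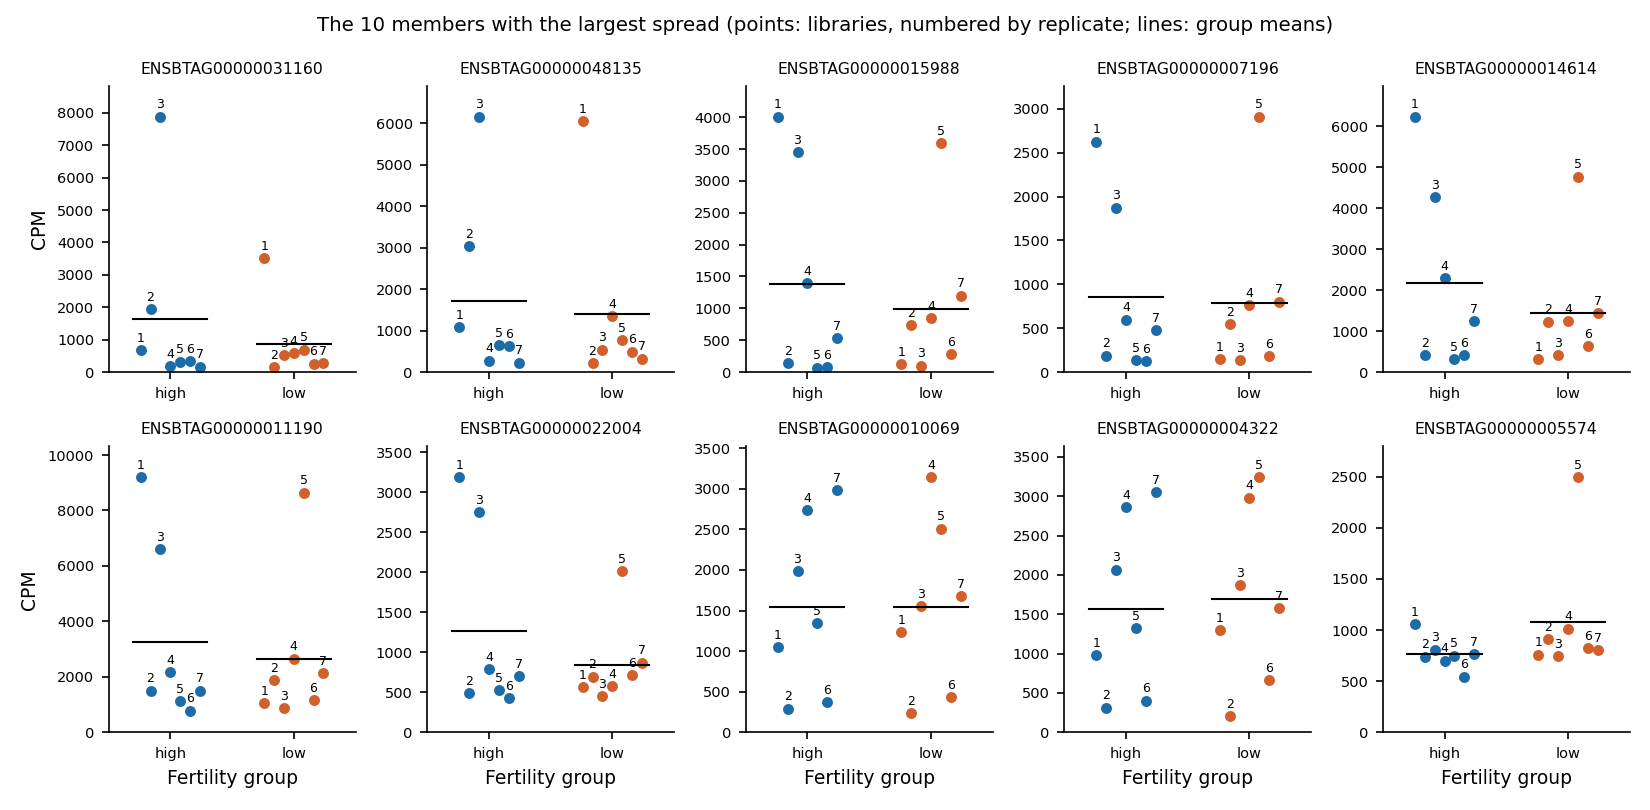
CPM (vertical) in high and low fertility libraries (horizontal) for the 10 members with the largest CV. Points are libraries with their replicate numbers and lines are group means; in 5 of the panels high fertility replicates 1 and 3 and low fertility replicate 5 stand above the rest, as for ENSBTAG00000011190 at 9209, 6608 and 8642 CPM.

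How members varied together was measured by the correlation of log2 CPM, with library sizes scaled by TMM (trimmed mean of M values), over the 14 libraries for all 4950 pairs. Points share library and depth, and pairs share genes. The median Pearson r was 0.10. An r of at least 0.9 was found for 65 pairs, or 1.31%, against 0.211% of all pairs of tested genes, and an r of -0.9 or below for 4 pairs, or 0.0808%, against 0.0963%. The size of r was at least 0.7 for 12.1% of the member pairs, against 7.86% of all pairs of tested genes. All tested genes include genes of far lower count, with larger counting error, and no pairs matched for abundance were compared. By a two-sided permutation test of r with 100000 resamples, 650 pairs (500 positive, 150 negative) had a Benjamini-Hochberg adjusted p under 0.05 over the 4950 pairs. By the same test of Spearman's rank correlation (rho), which single extreme libraries sway less, 530 pairs did. The permutation test was not run on pairs of other genes. Without low fertility replicate 5 the number by r was 444, and 1 pair had an r of -0.9 or below. Without low fertility replicates 4 and 5 the number by r was 393, of which 333 were among the 650.

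The 5 highest correlations joined genes already described or lay in the identifier run. ENSBTAG00000004322 and ENSBTAG00000010069 had r = 0.99 and rho = 0.97. ENSBTAG00000043571 and ENSBTAG00000043546, both of the run, had r = 0.98 and rho = 0.97. The other 3 pairs joined ENSBTAG00000014614, ENSBTAG00000015988 and ENSBTAG00000007196, with r of 0.97 to 0.98 and rho of 0.91 to 0.97. For each of the 5 pairs both permutation p-values were 1e-05, the smallest that the resamples can give, and the adjusted permutation p was 0.00099 for r and 0.00146 for rho. Without the 2 libraries farthest from the median of the first gene, r stayed at 0.97 to 0.98. For ENSBTAG00000014614 and ENSBTAG00000015988 r was also 0.96 without the 3 libraries in which both were high.

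The 3 lowest correlations all involved ENSBTAG00000005574, which was high in low fertility replicate 5 alone. Its r was -0.92 with ENSBTAG00000019267 (rho = -0.84, adjusted permutation p = 0.0146 for r and 0.00948 for rho). With ENSBTAG00000010793 its r was -0.92 (rho = -0.76, adjusted permutation p = 0.0101 for r and 0.0299 for rho). With ENSBTAG00000021466 it was -0.91 (rho = -0.66, adjusted permutation p = 0.0149 for r and 0.0804 for rho). Without low fertility replicate 5 and the next most distant library, r weakened to -0.69, -0.52 and -0.48, so that the size of these relations rested in part on those libraries. Among the high fertility libraries alone, which include that next library, r was -0.65, -0.71 and -0.79.

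Average-linkage clustering on r placed the members in 6 sets, which are a description and received no test. Set 1 held 39 members with a median r of 0.58 among themselves, including 8 of the 10 with a CV over 50%. Its summed share of counts was 8.24%, 7.72% and 8.57% in high fertility replicates 1 and 3 and low fertility replicate 5, and 4.13% to 6.63% in the other 11 libraries. Set 2 held 33 members (median r 0.57), 12 of them from the identifier run, and took 6.56% to 11.7% of counts. Set 3 held 12 members (median r 0.73), among them ENSBTAG00000021466, ENSBTAG00000013472 and ENSBTAG00000013103, and the thirteenth member of the run, ENSBTAG00000043570. Without low fertility replicate 5 the median r within set 3 was 0.45, while that within sets 1 and 2 was 0.56 in each.

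Set 3 ran against set 1, with a median r of -0.50 between their members. It took 1.45% of counts in low fertility replicate 5, where set 1 took 8.57%, and 3.67% to 6.67% in the other 13 libraries. Without that replicate the median r between the sets, kept as formed from all 14 libraries, was -0.45, and it lay between -0.53 and -0.49 when each of the other 13 was dropped in turn. Since the counts of a library add up to its total, a rise in some abundant genes lowers the CPM of others. With scaling factors taken from the genes outside the 100 members, the median r between sets 1 and 3 was -0.52. The median r within the run was 0.80 by this scaling and by TMM over all tested genes. By library totals alone these medians were -0.51 and 0.77. Within the run, the median r to the run was 0.19 for ENSBTAG00000043570 and 0.62 to 0.89 for the other members of the run. In these bulk samples, fewer cells of a type and less RNA per cell cannot be told apart.

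**Figure D4:**
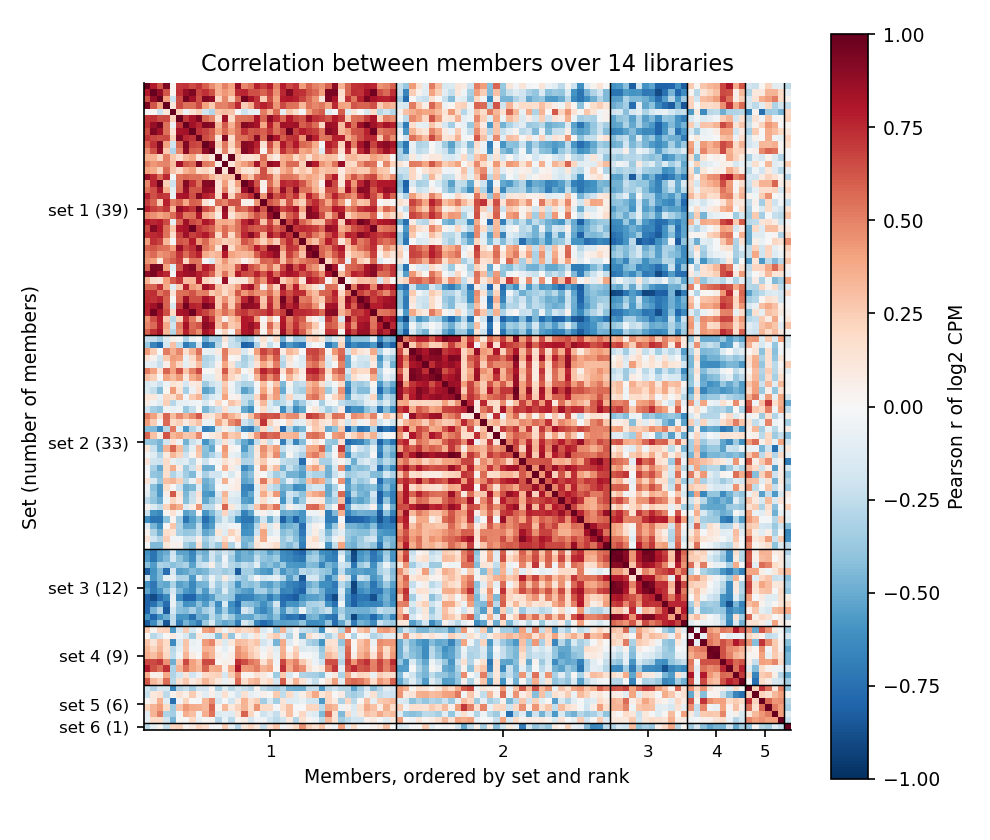
Pearson r of log2 CPM over 14 libraries between all pairs of the 100 members, ordered on both axes by set and then by rank, with red for positive and blue for negative r. Black lines part the 6 sets, with their numbers of members on the vertical axis; sets 1, 2 and 3 form red blocks with median r of 0.58, 0.57 and 0.73, and the block between sets 1 and 3 is blue, with a median of -0.50.

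The study compared high with low fertility cows. None of the 100 members passed that comparison: 0 had an adjusted p under 0.05 in the quasi-likelihood test of edgeR, Benjamini-Hochberg adjusted over all 14929 tested genes, where 5 genes, or 0.0335%, passed. The lowest adjusted p of a member was 0.728. At an unadjusted p under 0.05 there were 7 members, against 6.77% of all tested genes. All 7 were higher in high fertility, where 4.35% of tested genes were, and 0 were lower, against 2.42%. The groups did not overlap in TMM-scaled CPM for 0 members, against 0.121% of tested genes. By limma-voom and by DESeq2 8 members had an unadjusted p under 0.05, against 7.38% and 8.19% of all tested genes, and 0 passed after adjustment.

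The 7 members were ENSBTAG00000016208, ENSBTAG00000030190, ENSBTAG00000013162, ENSBTAG00000014835, ENSBTAG00000004094, ENSBTAG00000018423 and ENSBTAG00000020308. In the same edgeR test each had a Benjamini-Hochberg adjusted p of 0.728. ENSBTAG00000016208 was at 888 to 1442 CPM in high (median 1179) and 563 to 1168 CPM in low fertility samples (median 898), with a log2 change of 0.45 (SE 0.147). Of its high fertility samples, 4 of 7 exceeded the highest low fertility sample. ENSBTAG00000030190 was at 1962 to 3562 CPM in high (median 2701) and 1233 to 2527 CPM in low fertility samples (median 1976), with a log2 change of 0.52 (SE 0.173). Here 5 of 7 did so. For the other 5 the log2 change was 0.24 to 0.42, and 2 to 5 of the high fertility samples exceeded every low fertility one.

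The number of members at an unadjusted p under 0.05 depended on single libraries, and so did the share of all tested genes, which was 4.89% to 12.2% with 1 library left out. The members numbered 4 when low fertility replicate 3 or 5 was dropped, against 4.89% of all tested genes in either case. Leaving out low fertility replicate 6 also gave 4 members (7.75% of all tested genes). Dropping high fertility replicate 6 gave 4 (5%), and dropping high fertility replicate 5 gave 3 (5.87%). Without high fertility replicate 1 it was 10, against 10.7%, and 3 of those 10 were lower in high fertility. Without high fertility replicate 4 it was 5, against 5.51%, of which 1 was lower. It was 5 to 8 without any other library, with 0 lower. Without low fertility replicates 4 and 5 together it was 6, against 7.32% of all tested genes, and 2 of those 6 were lower.

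Set 5 held 4 of the 7 genes among its 6 members, all 6 of which had a log2 change above 0 (0.19 to 0.52). These 6 took 1.49% ± 0.144 of counts in high (SD, n = 7; 1.25% to 1.71%) and 1.21% ± 0.112 in low fertility samples (SD, n = 7; 1.04% to 1.36%). The ranges overlapped, and the set was formed from these same libraries.

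Intervals were narrow for most members. The 95% interval of the fold change lay within 2-fold in either direction for 87 members, against 82.2% of tested genes, and within 1.5-fold for 64, against 52.4%. The standard error of a log2 change had a median of 0.173 over the members and 0.188 over all tested genes. It was smaller, at 0.145, over the 900 tested genes ranked just below the members. The median size of the log2 change was also smaller in those genes, at 0.10 against 0.13 for the members. Of the 100, 3 had a fitted difference of at least 1.5-fold, against 6.27% of tested genes, and 1 of at least 2-fold, against 1.09%. That gene, ENSBTAG00000031160, had a log2 change of 1.02 with a 95% interval of -0.92 to 2.96. Without high fertility replicate 3, its highest library, the log2 change was -0.48, so its direction rested on that library, and without low fertility replicate 1 it was 2.02. The 10 members with a CV over 50% were all among the 13 whose interval reached beyond 2-fold.

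Log2 changes of the members ran from -0.46 to 1.02, with a median of 0.06 against -0.00170 for all tested genes, and 61 of 100 were above 0, against 49.7% of tested genes. With scaling by library totals alone 53 were above 0, and the medians were 0.03 for the members and -0.04 for all tested genes. The lowest of these changes, that of ENSBTAG00000005574, was -0.10 without low fertility replicate 5, its highest library. The members then ran from -0.46, for ENSBTAG00000006029, to 1.37, for ENSBTAG00000015988. With 1 library left out the median of the members was 0.01 (without high fertility replicate 3 or low fertility replicate 6) to 0.12 (without low fertility replicate 4), and 51 to 73 were above 0. The median of all tested genes was then -0.015 (without high fertility replicate 1) to 0.007 (without low fertility replicate 5). Without low fertility replicates 4 and 5 together 75 members were above 0, with a median of 0.09 against 0.013 for all tested genes. The share of all tested genes above 0 was not counted in these other fits. Among the 13 members of the identifier run 10 were above 0, from -0.18 to 0.28, and the lowest unadjusted p by edgeR's quasi-likelihood test was 0.154.

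Summed over the 100 members, the share of counts was 23.3% ± 0.829 in high (SD, n = 7; 22.2% to 24.5%) and 22.0% ± 1.57 in low fertility samples (SD, n = 7; 20.1% to 24.03%). The means differed by 1.37 percentage points, more than the SD of the high fertility group and less than that of the low fertility group. Of the low fertility samples, 4 of 7 lay below all high fertility samples, and 1 high fertility sample exceeded all low fertility samples. For the first 10 genes the shares were 9.58% ± 1.5 and 8.72% ± 1.61 (SD, n = 7 each), a difference of 0.853 percentage points that was 0.314 without low fertility replicate 5. No p-value is given for these sums, because the genes were chosen with earlier results of these data known.

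**Figure D5:**
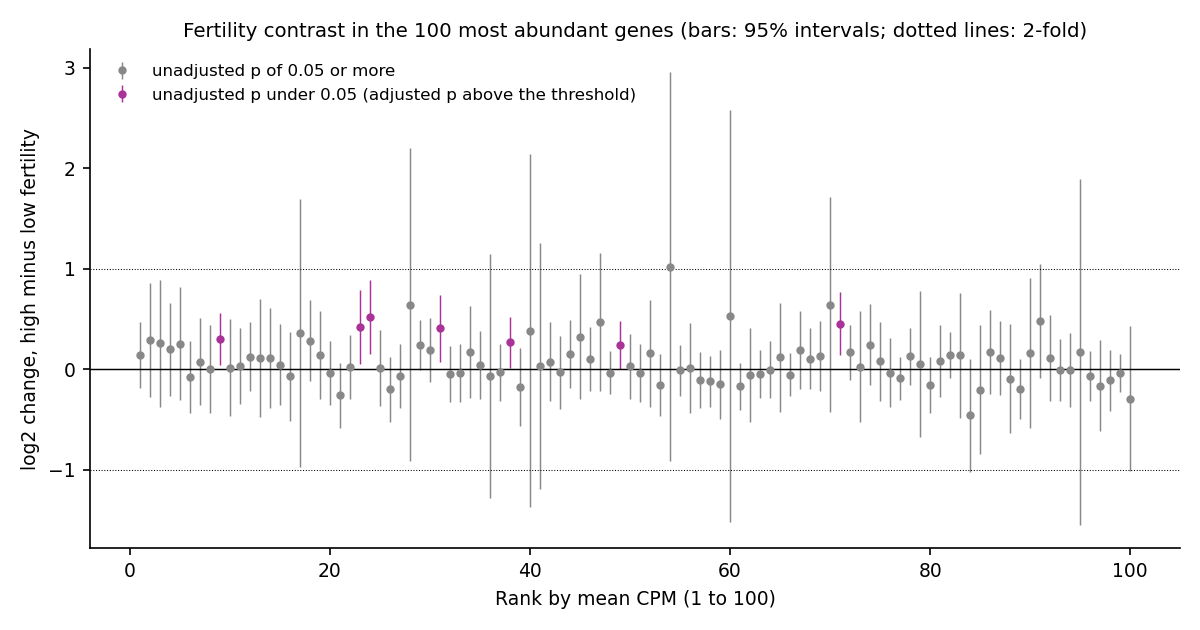
Log2 change, high minus low fertility (vertical), against rank by mean CPM (horizontal) for the 100 members, with 95% intervals from edgeR's quasi-likelihood fit and dotted lines at 2-fold. Purple marks the 7 members with an unadjusted p under 0.05, all above 0 and none past the adjusted threshold. The widest intervals belong to members with a CV over 50%, with ENSBTAG00000005574 (-1.02 to 0.10) as the exception. Its interval is narrower than that of ENSBTAG00000010793 (CV 39.1%, -0.58 to 0.90).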

How the data were processed

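The authors deposited whole-number counts per gene, not normalised, in 1 table of 14 libraries and in 1 file per library; of 217336 values compared between them 0 differed. Per the submitters' processing notes, UMD3.1 was the build and CASAVA 1.4, STAR, HTSeq 0.3p7 and edgeR were used. Not given in the sources used here: settings, gene models and strand use. Reads of overlapping, antisense or near-identical genes may therefore be split or lost. Totals were 20641141 to 23641397.

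The fits used edgeR 4.0.16 under R 4.3.3, with filterByExpr, TMM scaling, robust quasi-likelihood fits (glmQLFit, glmQLFTest) over all 14 libraries without covariates, and Benjamini-Hochberg adjustment over 14929 genes with a threshold of 0.05. The standard error of a log2 change is its size over the square root of F. Levels and shares used CPM by library total; correlations used TMM-scaled log2 CPM with a prior count of 2. Fits and pair tests were tested on simulated data. DESeq2 1.42.0 and limma 3.58.1 were alternatives. Figures used matplotlib 3.10.9.

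The members, lists and alternatives were chosen with earlier results of these data known. Named were the 10 highest members, the 10 of largest CV, the 5 of smallest p and any called, the 5 highest and 3 lowest pairs, and genes at the rule's edge. The other 2 at an unadjusted p under 0.05, and others named, were chosen after their values were seen, as were leaving out single libraries from the correlations and low fertility replicates 4 and 5 from the spread. The planned 23 role and marker lists could not be run without gene names, and the planned permutation tests of summed shares are not given. The labels give no batch.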

Additional observations from a re-analysis of the deposited data

Results flagged for a closer look

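In 64 groups of 7 values (the 26 members named by level, spread or p, and 6 summed shares, in each fertility group) 12 single libraries lay far from the rest of their group, where chance flags about 1 in 20 groups. The 10 members of largest CV were chosen by their spread over these same libraries, so that rate does not apply to their groups. The values of genes that vary together are not separate cases. Low fertility replicate 5 was far above its group for 6 genes: ENSBTAG00000015988 at 3597 CPM (next 1199), ENSBTAG00000007196 at 2911 CPM (next 802), ENSBTAG00000014614 at 4767 CPM (next 1428), ENSBTAG00000011190 at 8642 CPM (next 2661), ENSBTAG00000022004 at 2016 CPM (next 871) and ENSBTAG00000005574 at 2496 CPM (next 1015). Low fertility replicate 1 was far above for ENSBTAG00000031160 at 3515 CPM (next 692) and ENSBTAG00000048135 at 6047 CPM (next 1354). Among high fertility samples, replicate 3 was far above for ENSBTAG00000031160 at 7882 CPM (next 1944), replicate 4 for ENSBTAG00000043550 at 5787 CPM (next 4421) and replicate 5 for ENSBTAG00000013162 at 2927 CPM (next 2077). High fertility replicate 1 was far below for ENSBTAG00000020308 at 1129 CPM (next 1446).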

How the results depend on the processing

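No member passed the adjusted threshold in any of the 23 other fits (4 scalings, no low-count filter, DESeq2, limma-voom, library size as a covariate, low fertility replicates 4 and 5 left out together, and each library left out), nor among the members by the other 4 rules (mean TMM-scaled CPM, median CPM, 50 genes or 200 genes). Over all tested genes the 5 calls became 3 with upper quartile factors or library totals only, 19 by DESeq2, 1 by limma-voom or with log2 library size as a covariate, and 2 without low fertility replicates 4 and 5. Without 1 library it was 0 to 5. The members at an unadjusted p under 0.05 were 5 to 8 under the other alternatives, and 3 to 10 with 1 library left out. The difference in the share of the 100 members was 1.05 to 1.72 percentage points without 1 library and 1.98 relative to TMM-scaled totals. The median CV of the members was 21.5% to 23.3% without 1 library. Correlated pairs by r numbered 393 without low fertility replicates 4 and 5, and 444 to 662 without 1 library. Fewer samples are left in each. ENSBTAG00000031160 reversed, from a log2 change of 1.02 to -0.479 without high fertility replicate 3, its highest library; with 1 library left out it was -0.479 to 2.024, the latter without low fertility replicate 1. The cause of these changes was not tested. No paired analysis was possible because the labels give no pairing and replicate numbers only name samples.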
